A study of Rattus norvegicus with 15 samples.

Results

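The genes of respiratory chain complex I were followed in 15 expression arrays of the rat inferior colliculus, the auditory midbrain nucleus from which audiogenic seizures start. A gene was taken when its probe set carried a single symbol starting with Nduf, which covers the subunits of the enzyme and the Ndufaf assembly factors, and the brightest probe set over all 15 arrays stood for each gene. This gave 37 genes, from 41 probe sets with a single such symbol, of 14506 genes with a single symbol in all. One more probe set, which names both Ndufa10 and Ndufa10l1, was left out. By role the 37 genes were 6 core subunits, 12 accessory NDUFA subunits, 10 accessory NDUFB subunits, 4 accessory subunits of the NDUFC, NDUFS and NDUFV names, Ndufa4, 3 assembly factors and the pseudogene Ndufs6-ps1.

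The arrays came from the Wistar Audiogenic Rat (WAR), a strain bred from Wistar rats for seizures in response to loud sound, and from Wistar albino rats. There were 5 arrays of stimulated WAR (WAR S), 2 of stimulated Wistar (Wistar S), 4 of naïve WAR (WAR N) and 4 of naïve Wistar (Wistar N). The stimulated rats of both strains were sampled 60 min after the sound. All animals were males 12 weeks old of about 230 g, the WAR from Ribeirão Preto and the Wistar from Charles River by their labels, so that strain and supplier cannot be told apart. The arrays are labelled as biological replicates, and the p-values below measure the spread between them. The label of each array states whether the rat heard the sound, and it was followed here, although the general treatment note of the series describes stimulation for all animals and the methods give other group sizes and 1 animal house for both strains. In whole tissue, fewer cells of a type and less RNA per cell cannot be told apart.

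Complex I, the NADH:ubiquinone oxidoreductase, takes electrons from NADH, passes them along iron-sulphur clusters to ubiquinone and pumps protons across the inner mitochondrial membrane. Its core subunits carry the catalysis. Those of the arm in the matrix are encoded in the nucleus, those of the membrane arm in mitochondrial DNA, and around both sit many accessory subunits that are needed for assembly and stability. The inferior colliculus is among the brain regions with the highest energy use, and inherited loss of complex I is a known cause of brain disease with seizures in humans and mice.

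The promoters of 34 of the 37 genes were found in the RefSeq table of the GRCr8 rat assembly, as windows of 250 bases before and 50 bases after the annotated start. The motif of nuclear respiratory factor NRF1, a regulator of respiratory chain genes, written GCGCNTGCG on either strand, lay in 8 of the 34 (23.5%), and in 5.75% of all 33469 promoters of the table. The 34 genes are all protein-coding, and over the 21851 promoters of protein-coding genes the NRF1 share was 7.54%. The motif of YY1, AAGATGGCG on either strand, lay in 6 (17.6%), against 1.73% of all promoters and 2.07% of the protein-coding ones. The ETS motif CCGGAAGT was held by 2 (5.88%, all promoters 3.81%), the TATA box TATAAA by 2 (5.88%, all promoters 14.2%) and the ESRRA motif TCAAGGTCA by 0 (all promoters 0.433%). None of the 5 motifs was found in 17 of the 34 windows. Of the 14 windows whose genes were higher in naïve WAR below, 5 held the NRF1 motif and 1 the YY1 motif, and of the 5 windows of lower genes, 0 held either. The windows of 4 genes are shown, 5′ to 3′ on the strand of the gene, with motif letters in capitals. Ndufs5 holds the NRF1 motif on the opposite strand at bases 123 to 131 of its window, and Ndufs4 holds the YY1 motif at bases 255 to 263. Ndufb6 and Ndufb2, the subunits of the membrane arm that moved furthest up and down between naïve strains, hold none of the 5. A match is a run of letters, and binding was not measured.

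Ndufs5, chr5:141264353-141264652, minus strand: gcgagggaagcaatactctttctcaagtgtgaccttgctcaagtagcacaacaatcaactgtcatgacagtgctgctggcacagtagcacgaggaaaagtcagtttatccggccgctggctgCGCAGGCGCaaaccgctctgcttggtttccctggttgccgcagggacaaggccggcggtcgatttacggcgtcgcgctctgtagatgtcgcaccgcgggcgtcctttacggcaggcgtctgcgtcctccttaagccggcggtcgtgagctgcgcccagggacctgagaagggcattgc

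Ndufs4, chr2:47794865-47795164, minus strand: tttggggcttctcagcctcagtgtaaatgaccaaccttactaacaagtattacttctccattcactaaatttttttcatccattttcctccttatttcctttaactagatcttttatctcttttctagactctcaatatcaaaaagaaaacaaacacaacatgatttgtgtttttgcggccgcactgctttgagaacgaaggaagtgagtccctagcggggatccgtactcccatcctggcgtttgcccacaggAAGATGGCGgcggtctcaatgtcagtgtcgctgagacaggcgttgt

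Ndufb6, chr5:60206103-60206402, minus strand: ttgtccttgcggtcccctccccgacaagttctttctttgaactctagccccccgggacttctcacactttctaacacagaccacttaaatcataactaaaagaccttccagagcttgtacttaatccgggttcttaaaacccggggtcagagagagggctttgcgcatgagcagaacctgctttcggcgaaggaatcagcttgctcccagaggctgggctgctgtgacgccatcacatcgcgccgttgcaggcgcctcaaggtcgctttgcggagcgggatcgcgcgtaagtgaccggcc

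Ndufb2, chr4:69334057-69334356, plus strand: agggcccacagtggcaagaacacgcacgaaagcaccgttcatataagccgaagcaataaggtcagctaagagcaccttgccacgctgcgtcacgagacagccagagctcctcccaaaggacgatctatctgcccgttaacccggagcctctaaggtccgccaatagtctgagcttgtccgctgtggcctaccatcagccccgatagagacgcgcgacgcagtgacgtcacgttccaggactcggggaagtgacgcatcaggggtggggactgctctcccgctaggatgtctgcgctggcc

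The values are log2 probe set intensities, on which 1 unit is a factor of 2. The 37 genes lay at 7.35 to 12.58 with a median of 10.21, and all genes at a median of 7.77. The array medians over all probe sets were 7.21 to 7.27 in the stimulated arrays and 7.01 to 7.14 in the naïve arrays. Any 2 stimulated arrays shared 2675 to 3286 identical values, any 2 naïve arrays shared 2 to 13, and a stimulated and a naïve array shared 0, so WAR was set against Wistar only within the stimulated and within the naïve arrays. Of 7 measured markers of inferior colliculus neurons, Slc17a6, Tfap2d, Gad1, Gad2 and Meis2 stood at 10.45 to 11.61 in Wistar N, Slc32a1 at 9.13 and Tfap2b at 6.68. The 6 markers of the neighbouring cerebellum stood at 4.90 (Neurod1) to 8.72 (Calb1), and levels of different probe sets are not on 1 scale. The Wistar N 1 array stood apart from the other 3 Wistar N arrays. The naïve counts over the 37 genes, and the differences of some of them, are therefore given with and without it. The calls in other gene lists and in cell type markers rest on all arrays and were not repeated below without it.

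In naïve rats, more complex I genes were called higher than lower in WAR N. The share called lower was near that of all genes. Of the 37 genes, 16 were higher in WAR N than in Wistar N at an adjusted p of at most 0.05 (43.2% of them, against 11.6% of all genes), and 5 were lower (13.5%, against 9.38% of all genes). These p-values rest on a spread pooled over the 4 groups, and the median SD of the 37 genes was 0.13 in WAR S, 0.056 in Wistar S, 0.13 in WAR N and 0.36 in Wistar N. A fit of the 2 naïve groups alone called 5 of the 37 genes (6.06% of all genes), Ndufa7, Ndufb4, Ndufc2, Ndufs5 and Ndufv1. The median difference over the 37 genes was 0.32, and that over all genes was 0.023. The higher genes included the core subunit Ndufv2, 5 NDUFA and 6 NDUFB subunits and all 4 of Ndufc2, Ndufs4, Ndufs5 and Ndufv3. The lower genes were the core subunits Ndufv1 and Ndufs1, Ndufa10, Ndufb2 and the assembly factor Ndufaf1. Without the Wistar N 1 array the counts were 17 higher (22.6% of all genes) and 11 lower (18.5% of all genes). All 4 WAR N arrays lay above all 4 Wistar N arrays for 7 of the 37 genes (7.93% of all genes), namely Ndufa12, Ndufa3, Ndufa7, Ndufab1, Ndufb4, Ndufc2 and Ndufs5, and below them for 1, Ndufv1 (5.51% of all genes).

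**Figure D1:**
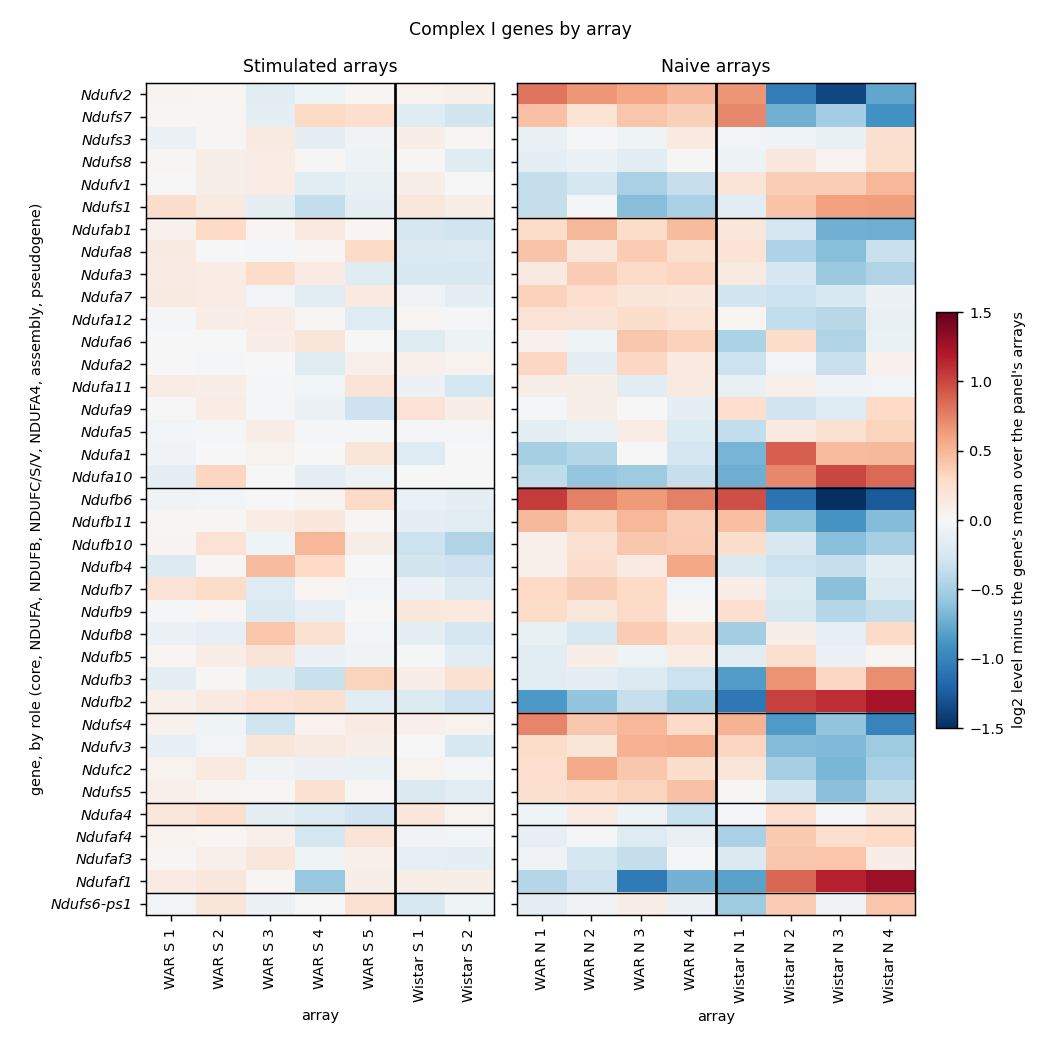
Each cell is the level of 1 of the 37 complex I genes (down the page, by role) on 1 of the 15 arrays (across, by group), as a log2 difference from the mean of that gene over the stimulated or the naïve arrays. The stimulated columns are pale. Among the naïve arrays the Wistar N 1 column is nearer to the WAR N columns than to the other Wistar N columns for most genes.

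**Figure D2:**
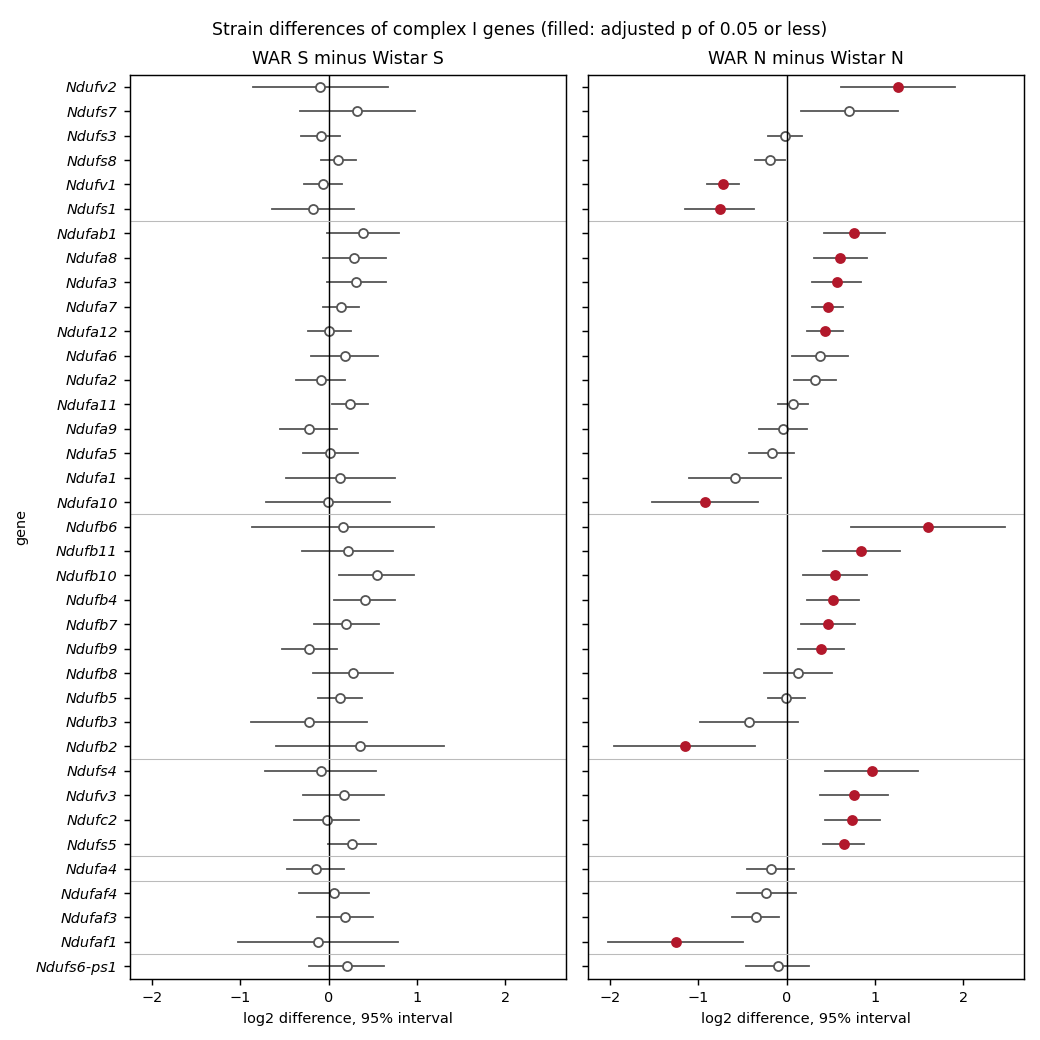
The log2 difference of WAR minus Wistar for each gene, with its 95% interval, in stimulated arrays (5 WAR, 2 Wistar) and in naïve arrays (4 of each strain), with filled points at an adjusted p of at most 0.05. The naïve differences reach from -1.25 (Ndufaf1) to 1.60 (Ndufb6), and the stimulated differences from -0.23 to 0.54 with 0 genes past the threshold.

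Among the core subunits, which hold the flavin and the iron-sulphur clusters, Ndufv2 rose and Ndufv1 and Ndufs1 fell in WAR N. Ndufv2, an iron-sulphur subunit at the tip of the matrix arm, was at 12.34, 12.18, 12.12 and 12.03 in WAR N and at 12.20, 10.51, 10.17 and 10.75 in Wistar N. The first Wistar array lay within the WAR range and the other 3 lay more than 1 log2 unit below it. The difference was 1.26 (SE 0.30, adjusted p = 0.0101), a factor of 2.39, and without the Wistar N 1 array it was 1.69.

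Ndufv1, its partner at the tip, binds NADH and the flavin. It was at 10.30, 10.42, 10.17 and 10.32 in WAR N and at 10.86, 11.03, 11.03 and 11.16 in Wistar N. The 2 groups did not overlap. Wistar N 1 was the lowest Wistar array and stood nearer to the other Wistar arrays than to WAR N. The difference was -0.72 (SE 0.08, adjusted p = 0.000293). Ndufs1, the largest iron-sulphur subunit, was at 10.96, 11.29, 10.67 and 10.82 in WAR N and at 11.15, 11.74, 11.92 and 11.94 in Wistar N. Only WAR N 2 and Wistar N 1 crossed, and the difference was -0.75 (SE 0.18, adjusted p = 0.0107).

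Ndufs7, which carries the last cluster before ubiquinone, was at 11.43, 11.21, 11.41 and 11.35 in WAR N and at 11.72, 10.27, 10.48 and 10.09 in Wistar N. The first Wistar array was the highest of the 8 and the other 3 Wistar arrays were the lowest. Its difference of 0.71 (SE 0.26) missed the threshold with all arrays (adjusted p = 0.064) and was 1.07 without Wistar N 1 (adjusted p = 5.62e-06). Ndufs8, another cluster subunit, was at 9.70, 9.75, 9.67 and 9.85 in WAR N and at 9.75, 9.99, 9.88 and 10.07 in Wistar N, a difference of -0.18 (adjusted p = 0.118). Ndufs3, a core subunit without a cluster, was at 9.78, 9.88, 9.83 and 10.04 in WAR N and at 9.84, 9.84, 9.78 and 10.13 in Wistar N, a difference of -0.018 (adjusted p = 0.909). The groups of both genes overlapped.

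Of the 12 NDUFA subunits, 5 were higher and 1 was lower. Ndufab1, the mitochondrial acyl carrier protein that also serves fatty acid synthesis, was at 10.77, 10.99, 10.77 and 10.97 in WAR N and at 10.66, 10.24, 9.77 and 9.76 in Wistar N. The groups did not overlap, with Wistar N 1 nearest to WAR N, and the difference was 0.77 (SE 0.16, adjusted p = 0.00502). Ndufa7, a small subunit of the matrix arm, was at 9.53, 9.44, 9.37 and 9.35 in WAR N and at 8.90, 8.87, 8.95 and 9.09 in Wistar N. Here all 4 Wistar arrays lay together, below every WAR array, and the difference was 0.47 (SE 0.08, adjusted p = 0.00214).

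Ndufa12, an accessory subunit of the matrix arm that is a relative of an assembly factor, was at 11.00, 10.98, 11.04 and 10.99 in WAR N and at 10.81, 10.42, 10.37 and 10.67 in Wistar N. Its groups did not overlap, and the difference was 0.44 (adjusted p = 0.00618). Ndufa3, of the membrane arm, was at 11.13, 11.37, 11.28 and 11.32 in WAR N and at 11.12, 10.74, 10.44 and 10.55 in Wistar N, higher by 0.57 (adjusted p = 0.00827). Ndufa8, which faces the intermembrane space, was at 11.79, 11.53, 11.74 and 11.59 in WAR N and at 11.56, 10.90, 10.72 and 11.03 in Wistar N, higher by 0.61 (adjusted p = 0.00871). Wistar N 1 lay just below the lowest WAR array for Ndufa3 and lay within the WAR range for Ndufa8. Ndufa10, a subunit with the fold of a nucleoside kinase, was at 7.23, 7.03, 7.07 and 7.26 in WAR N and at 6.88, 8.32, 8.61 and 8.46 in Wistar N. The first Wistar array lay below all WAR arrays and the other 3 above them, with a difference of -0.92 (SE 0.28, adjusted p = 0.0305). The call was lost without Wistar N 2, 3 or 4 or WAR N 1, 2 or 3, where the adjusted p reached 0.102.

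The other 6 NDUFA subunits did not pass. Ndufa1, an X-linked subunit needed for assembly of the membrane arm, was at 8.20, 8.27, 8.69 and 8.44 in WAR N and at 8.00, 9.59, 9.16 and 9.18 in Wistar N. As for Ndufa10, Wistar N 1 lay below and the rest of its group above the WAR arrays, and the difference of -0.58 (adjusted p = 0.104) was -0.91 without that array (adjusted p = 5.28e-05). Ndufa2, Ndufa5, Ndufa6, Ndufa9 and Ndufa11 had differences of -0.17 (Ndufa5) to 0.38 (Ndufa6), with Ndufa2 at 0.32 (adjusted p = 0.0574).

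The NDUFB subunits, which sit in the membrane arm, counted 6 higher and 1 lower of 10. Ndufb6 had the largest difference of the 37 genes. It was at 12.29, 11.99, 11.88 and 11.99 in WAR N and at 12.20, 10.12, 9.45 and 9.97 in Wistar N. The first Wistar array was within the WAR range and the other 3 were more than 1 log2 unit below the lowest WAR array. The difference was 1.60 (SE 0.40, adjusted p = 0.0135), a factor of 3.03, and 2.19 without Wistar N 1. In the stimulated arrays the same gene was at 11.96, 11.97, 12.02, 12.06 and 12.31 in WAR S and at 11.92 and 11.89 in Wistar S.

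Ndufb2 moved the other way. It was at 9.05, 9.32, 9.57 and 9.42 in WAR N and at 8.85, 10.94, 11.03 and 11.16 in Wistar N. The first Wistar array was the lowest of the 8, and the other 3 were the highest. The difference was -1.15 (SE 0.37, adjusted p = 0.0414), a factor of 2.22 lower, and -1.70 without Wistar N 1 (adjusted p = 1.3e-07). With any other single array left out, the adjusted p was 0.0507 to 0.126.

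Ndufb11, an X-linked subunit, was at 11.58, 11.43, 11.59 and 11.47 in WAR N and at 11.55, 10.49, 10.21 and 10.44 in Wistar N. Again only Wistar N 1 lay among the WAR arrays, and the difference was 0.85 (SE 0.20, adjusted p = 0.0104). Ndufb4 was at 10.47, 10.66, 10.52 and 10.97 in WAR N and at 10.18, 10.08, 10.05 and 10.24 in Wistar N, a difference of 0.52 (SE 0.14, adjusted p = 0.0165) with no overlap and with Wistar N 1 inside its own group. Ndufb10, which faces the intermembrane space, was at 10.10, 10.25, 10.43 and 10.40 in WAR N and at 10.29, 9.78, 9.40 and 9.52 in Wistar N, higher by 0.55 (adjusted p = 0.0333). Ndufb7, on the same side, was at 10.37, 10.44, 10.37 and 10.03 in WAR N and at 10.17, 9.87, 9.44 and 9.86 in Wistar N, higher by 0.47 (adjusted p = 0.0328). Ndufb9, which carries an LYR motif, was at 11.64, 11.53, 11.65 and 11.39 in WAR N and at 11.61, 11.12, 10.94 and 11.00 in Wistar N, higher by 0.39 (adjusted p = 0.0377). For all 3 genes the only Wistar array among the WAR arrays was Wistar N 1. These 3 calls were lost when 1 of several arrays was left out, among them each of Wistar N 2, 3 and 4, with adjusted p up to 0.11, 0.103 and 0.119. Ndufb3, Ndufb5 and Ndufb8 did not pass, at -0.42, -0.0028 and 0.13 (adjusted p = 0.272, 0.987 and 0.651).

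All 4 measured accessory subunits of the NDUFC, NDUFS and NDUFV names were higher in WAR N. Ndufs4, whose loss in mice gives a fatal encephalopathy with seizures, was at 12.67, 12.34, 12.44 and 12.22 in WAR N and at 12.46, 11.08, 11.34 and 10.94 in Wistar N. Wistar N 1 lay within the WAR range and the other 3 Wistar arrays lay below it, with a difference of 0.96 (SE 0.25, adjusted p = 0.0142). Ndufs5, a subunit on the side of the intermembrane space whose promoter with the NRF1 motif is shown above, was at 10.61, 10.66, 10.71 and 10.81 in WAR N and at 10.40, 10.07, 9.75 and 9.99 in Wistar N. The groups did not overlap and the difference was 0.65 (SE 0.11, adjusted p = 0.00175).

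Ndufc2, of the membrane arm, was at 12.57, 12.88, 12.71 and 12.58 in WAR N and at 12.49, 11.82, 11.63 and 11.83 in Wistar N, again without overlap and with Wistar N 1 close to WAR N, and the difference was 0.74 (adjusted p = 0.00377). Ndufv3, an accessory subunit of the tip of the matrix arm, had 2 probe sets that went opposite ways. The brighter one was at 10.23, 10.13, 10.47 and 10.49 in WAR N and at 10.27, 9.29, 9.29 and 9.41 in Wistar N, a difference of 0.76 (adjusted p = 0.00948). The dimmer one was at 8.29, 8.46, 8.63 and 8.82 in WAR N and at 9.15, 9.07, 8.83 and 8.77 in Wistar N, a difference of -0.40 (adjusted p = 0.0486 over all probe sets). The rise of Ndufv3 therefore belongs to 1 of its 2 probe sets. The second probe sets of Ndufs5 and Ndufb4 moved the same way as the first, by 0.63 and 0.42.

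**Figure D3:**
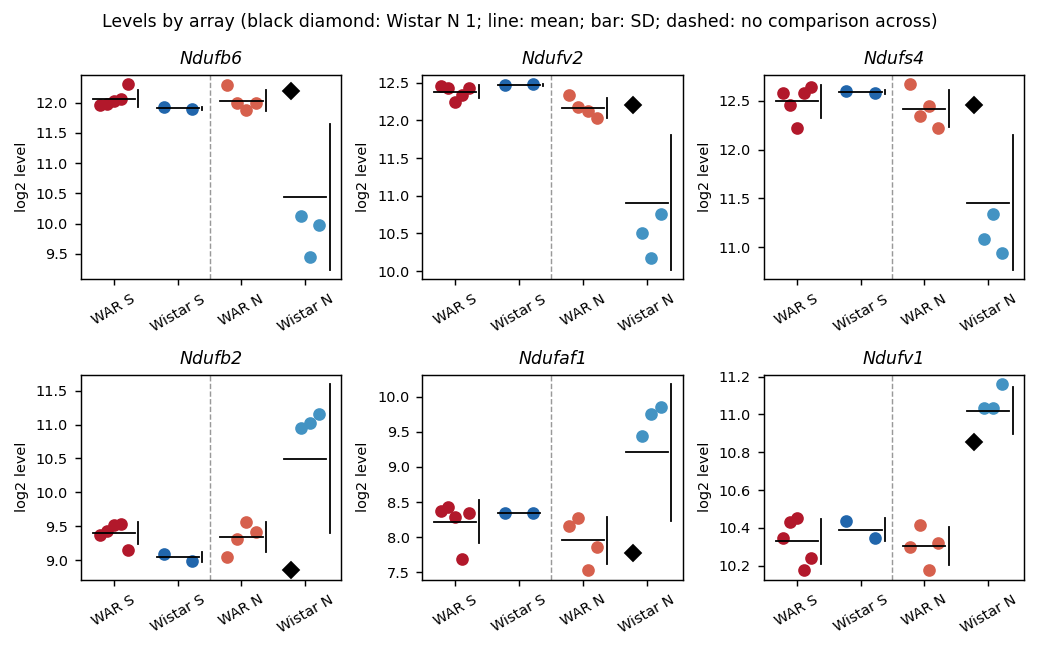
The log2 level of 6 complex I genes on each array, with WAR left of Wistar within the stimulated and the naïve arrays, a horizontal line for the group mean, a vertical bar for the SD and a black diamond for Wistar N 1. For Ndufb6, Ndufv2 and Ndufs4 the diamond lies within the WAR N range, for Ndufb2 it lies below all WAR N arrays, and for Ndufv1 it lies between the WAR N arrays and the other Wistar N arrays.

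Ndufa4, long counted as complex I and now known as a subunit of cytochrome c oxidase, was the brightest of the 37 genes at 12.58 and differed by -0.18 in naïve rats (adjusted p = 0.332). Ndufaf1, an assembly factor of the membrane arm, was at 8.16, 8.27, 7.53 and 7.87 in WAR N and at 7.78, 9.44, 9.75 and 9.86 in Wistar N. Wistar N 1 lay within the WAR range, more than 1 log2 unit below the rest of its group. The difference was -1.25 (SE 0.36, adjusted p = 0.0235), a factor of 2.38 lower, and the call was lost without any 1 of Wistar N 2, 3 or 4 or WAR N 3 or 4 (adjusted p up to 0.0794).

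Ndufaf3 and Ndufaf4, assembly factors that act together on the arm that binds ubiquinone, had differences of -0.35 and -0.23 (adjusted p = 0.0611 and 0.323), and both passed without Wistar N 1, at -0.48 and -0.43 (adjusted p = 0.00137 and 0.00157). The probe set of the pseudogene Ndufs6-ps1 differed by -0.10 (adjusted p = 0.717). Its signal may include that of Ndufs6, whose copy it is, so the value is uncertain.

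In stimulated rats the strain differences of the same genes were smaller than in naïve rats, as they were over all genes. The median absolute difference of the 37 genes was 0.18 in stimulated and 0.52 in naïve rats, and over all genes 0.069 and 0.16. Some stimulated values of these genes were identical between arrays. Ndufa10 was at 7.06 on both Wistar S arrays and WAR S 3, and Ndufaf1 at 8.34 on both Wistar S arrays and WAR S 5. The cause was not tested. No complex I gene passed the threshold (limma, 0 of 37, against 0.414% of all genes), and 3 genes, all higher in WAR S, had an unadjusted p of at most 0.05, against 6.85% of all genes. The median difference over the 37 genes was 0.13 and that over all genes 0.010. The difference was at least 0.5 in size for 1 of the 37 genes in stimulated rats and for 19 in naïve rats. That count was not made over all genes. The 5 WAR S arrays all lay above both Wistar S arrays for 14 genes (12.4% of all genes) and below them for 2, Ndufb9 and Ndufv2 (8.22% of all genes).

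The largest stimulated difference was that of Ndufb10, at 10.28, 10.45, 10.18, 10.74 and 10.32 in WAR S and at 9.92 and 9.79 in Wistar S. No array overlapped, and the difference was 0.54 (95% interval 0.12 to 0.97, adjusted p = 0.462). Ndufb4 was at 10.58, 10.80, 11.27, 11.08 and 10.78 in WAR S and at 10.52 and 10.47 in Wistar S, a difference of 0.41 (interval 0.060 to 0.76). These 2 genes had differences of 0.55 and 0.52 in naïve rats. Ndufab1 was at 10.80, 11.04, 10.77, 10.89 and 10.77 in WAR S and at 10.49 and 10.44 in Wistar S (difference 0.39), and Ndufa3 at 11.50, 11.49, 11.65, 11.50 and 11.19 in WAR S and at 11.15 and 11.15 in Wistar S (difference 0.32). Ndufs7 averaged 11.50 in WAR S and 11.18 in Wistar S (difference 0.32).

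Ndufb2, which was lower in naïve WAR, was at 9.37, 9.43, 9.52, 9.54 and 9.15 in WAR S and at 9.10 and 9.00 in Wistar S. Here WAR lay above Wistar on every array, with a difference of 0.36 (95% interval -0.59 to 1.30). Of the differences below 0, the furthest were those of Ndufa9 (-0.23), Ndufb3 (-0.22), Ndufb9 (-0.22), Ndufs1 (-0.18), Ndufa4 (-0.15) and Ndufaf1 (-0.12). Of these 6 genes, Ndufb9 had no overlap, at 11.75, 11.80, 11.54, 11.64 and 11.77 in WAR S and at 11.92 and 11.91 in Wistar S, and it was the gene of this list that was higher in naïve WAR. For Ndufv2 the stimulated arrays were at 12.45, 12.43, 12.25, 12.34 and 12.43 in WAR S and at 12.47 and 12.48 in Wistar S, a difference of -0.094 (interval -0.86 to 0.67). With 2 Wistar S arrays the intervals were wide and a missed threshold does not show that the strains were alike.

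Whether the strain difference itself changed between stimulated and naïve arrays was tested with the interaction term. No complex I gene passed (limma, 0 of 37, against 0.103% of all genes), and 13 of the 37 had an unadjusted p of at most 0.05, against 15.0% of all genes. The lowest adjusted p was that of Ndufv1, at 0.0637, with a strain difference of -0.062 in stimulated and -0.72 in naïve arrays. Without the Wistar N 1 array, 22 of the 37 genes passed (20.4% of all genes), 12 of them with a lower and 10 with a higher strain difference in stimulated than in naïve arrays. The count therefore turned on that single array. Since stimulated and naïve arrays share no normalised value and appear to have been normalised apart, the term compares differences made within each set.

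The Wistar N 1 array was set against its own group over the 37 genes. It lay outside the range of the other 3 Wistar N arrays for 31 genes (83.8%, against 71.9% of all genes), above it for 15 (42.9% of all genes) and below it for 16 (29.0% of all genes). Its median absolute distance from the mean of the other 3 was 0.61 over the complex I genes and 0.26 over all genes. For Wistar N 2, 3 and 4, measured the same way, the distance over the complex I genes was 0.21, 0.28 and 0.25. It was at least 1 for 10 of the 37 genes on Wistar N 1 (7.42% of all genes), reaching 2.35 for Ndufb6 and -2.19 for Ndufb2.

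On most complex I genes Wistar N 1 was nearer to the WAR N mean than to the mean of the other Wistar N arrays. These were 31 of the 37 genes (83.8%, against 67.3% of all genes). It lay inside the WAR N range for 16 and outside it for the rest, a count that was not made over all genes. Wistar N 2, 3 and 4 were nearer to WAR N for 7, 5 and 6 genes. These were 18.9%, 13.5% and 16.2%, against 32.1%, 29.8% and 34.8% of all genes. Over the 37 genes the median absolute distance between Wistar N 1 and a WAR N array was 0.20 to 0.29, and that between 2 WAR N arrays 0.13 to 0.19. Between Wistar N 1 and the other Wistar N arrays it was 0.59 to 0.69, and between WAR N and Wistar N 2 to 4 it was 0.53 to 0.85. Ndufa7 and Ndufb4 were called genes for which Wistar N 1 lay within the range of its own group.

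**Figure D4:**
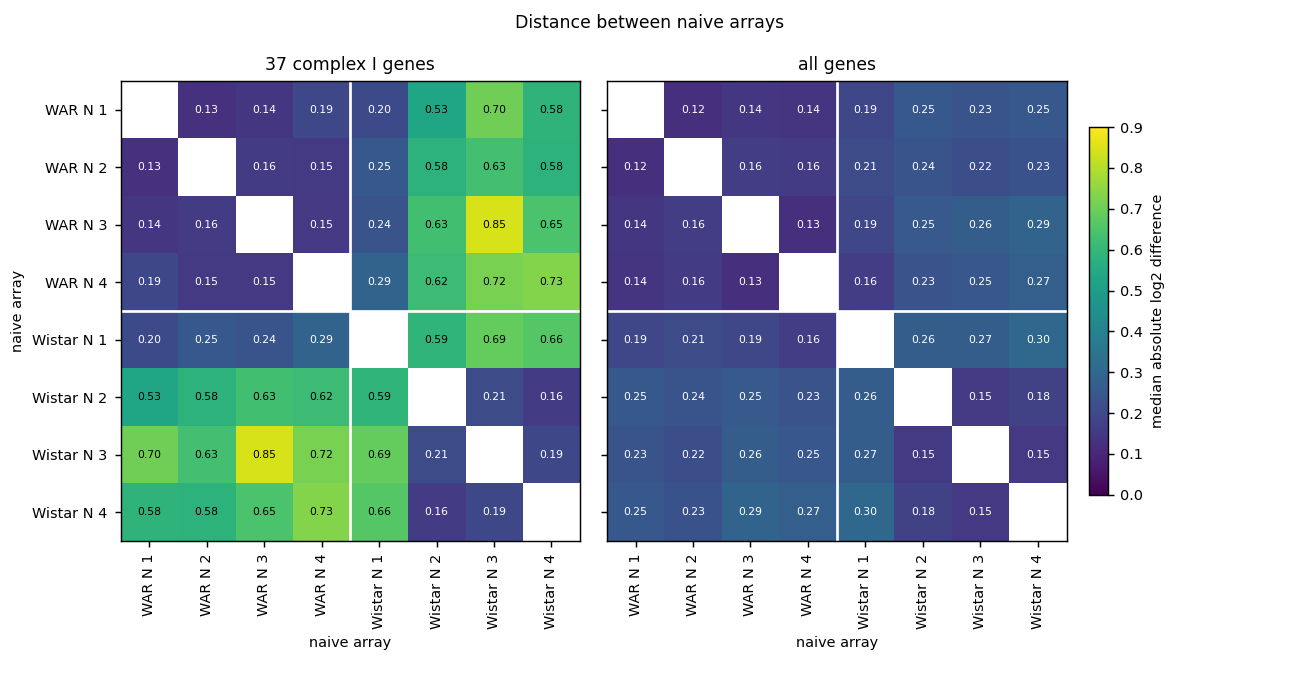
The median absolute log2 difference between each pair of the 8 naïve arrays, over the 37 complex I genes (left) and over all genes (right), on 1 colour scale. Over the complex I genes Wistar N 1 is 0.20 to 0.29 from the WAR N arrays and 0.59 to 0.69 from the other Wistar N arrays, and over all genes the same distances are 0.16 to 0.21 and 0.26 to 0.30.

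The array descriptions fall into 2 sets. In 8 of them a running number is part of the name, and these are WAR S 1, 2 and 5, both Wistar S, WAR N 1 and 2 and Wistar N 1. The other 7 are WAR S 3 and 4, WAR N 3 and 4 and Wistar N 2, 3 and 4. What the sets stand for is not stated. Within the first set, with Wistar N 1 as the lone Wistar N array and its spread taken from the other groups, 9 complex I genes passed in naïve rats (23.4% of all genes), and 2 had a difference of at least 0.5. Of the 21 genes called with all arrays, 13 kept their direction there.

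Within the second set, 16 genes were higher (13.2% of all genes) and 9 lower (14.4% of all genes) in naïve WAR. Ndufb6 differed by -0.060 in the first set and by 2.08 in the second, Ndufb2 by 0.34 and -1.55, and Ndufaf1 by 0.44 and -1.99. Ndufv1 differed by -0.50 in the first and -0.83 in the second, and Ndufa7 by 0.58 and 0.39. WAR N arrays of the 2 sets lay together, since the distance between any 2 of the 4 was at most 0.19 over the complex I genes. Apart from Wistar N 1, the Wistar N arrays all belong to the second set, so for Wistar the label set and that array cannot be told apart.

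Other parts of the same pathway were read from lists of named genes. Of 12 further genes of complex I assembly, 3 were higher and 1 was lower in WAR N (11.6% and 9.38% of all genes), with a median of 0.058. Bola3, which helps to deliver iron-sulphur clusters, was higher by 1.23 (adjusted p = 0.019) and stood at 11.55 on Wistar N 1 against a mean of 9.59 on the other Wistar N arrays. Dmac2, an assembly factor of the membrane arm, was higher in WAR in both comparisons, by 0.67 in stimulated (adjusted p = 0.037) and 0.52 in naïve rats (adjusted p = 0.00502). Aifm1, needed for import of complex I proteins, was higher by 0.42 (adjusted p = 0.00691), and Dnajc11, of the cristae contact sites, was lower by 0.55 (difference -0.55, adjusted p = 0.00124).

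Of 34 genes of complexes II to V, 12 were higher and 4 lower in naïve WAR, with a median of 0.19, and in stimulated rats 1, Cox6a1 of cytochrome c oxidase, was higher by 0.59 (adjusted p = 0.0233). Uqcrh of complex III was higher by 0.80 (adjusted p = 0.00167). Among the subunits of ATP synthase, Atp5mg was higher by 1.13 (adjusted p = 0.00248), while Atp5me was lower, with a difference of -1.62 (adjusted p = 0.00276). Over all genes, 11.6% were higher and 9.38% lower in naïve WAR. Of the 34 genes 47.1% were called in either direction, against 20.9% of all genes.

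Of 11 regulators of mitochondrial biogenesis 3 were higher and 2 lower (11.6% and 9.38% of all genes). Nrf1, the factor whose motif was searched, differed by 0.37 (adjusted p = 0.0018), and Ppargc1a, a coactivator of respiratory genes, by 0.40 (adjusted p = 0.00881). Tfb1m, a methyltransferase of mitochondrial ribosomal RNA, differed by 0.65 (adjusted p = 0.00323). Esrra and Esrrg, nuclear receptors that act with that coactivator, differed by -0.35 and -0.31 (adjusted p = 0.00672 and 0.049). Of 68 mitochondrial ribosomal protein genes 19 were higher and 5 lower (median 0.025). Of 47 proteasome genes, which are not mitochondrial, 6 were higher and 3 lower (median -0.055). The shares called in either direction were 35.3% and 19.1%, the second near the 20.9% of all genes. Wistar N 1 lay outside the range of the other 3 Wistar N arrays for 85.3% of the mitochondrial ribosomal genes and for 89.4% of the proteasome genes, against 71.9% of all genes.

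**Figure D5:**
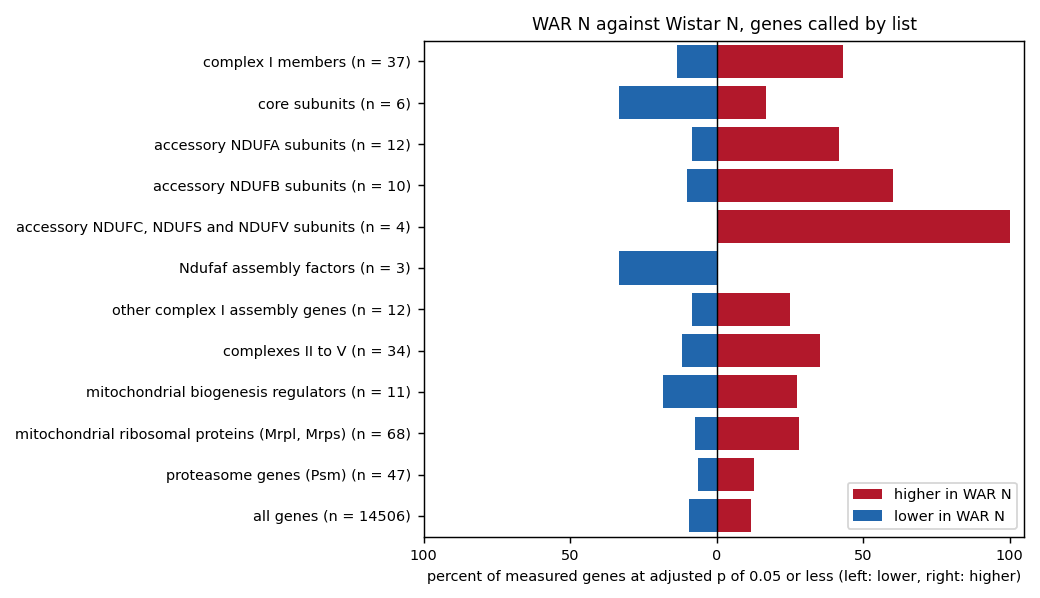
The share of each gene list that was higher or lower in WAR N than in Wistar N at an adjusted p of at most 0.05, with the number of measured genes beside its name. The complex I genes stand at 16 higher and 5 lower of 37, complexes II to V at 12 and 4 of 34, and all genes at 1677 and 1360 of 14506.

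Markers of cell types were set beside these results. Over all genes, 11.6% were higher and 9.38% lower in WAR N, and 20.9% were called in either direction. Over 10 neuronal markers 0 were higher and 2 lower in WAR N, and their mean level was 10.91 to 11.27 in WAR N, 11.48 on Wistar N 1 and 10.86 to 11.24 on Wistar N 2 to 4. Of the 7 markers of inferior colliculus neurons 0 were higher and 3 lower. These were Slc32a1, the vesicular GABA transporter (difference -1.14, adjusted p = 0.00232), Gad1, a GABA synthesising enzyme (-0.83, adjusted p = 0.00251), and Slc17a6, a vesicular glutamate transporter (-0.62, adjusted p = 0.0143). The mean level of this list was 9.55 to 9.86 in WAR N, 9.998 on Wistar N 1 and 10.03 to 10.26 on Wistar N 2 to 4. Over 7 oligodendrocyte markers 1 was higher and 2 lower, at a mean level of 11.21 to 11.44 in WAR N, 11.71 on Wistar N 1 and 11.18 to 11.36 on the others. Of 8 astrocyte markers 0 were higher and 2 lower, and of 8 microglial markers 3 were higher and 0 lower. Of 8 markers of endothelial cells, 4 were higher and 0 lower. The mean level of the 8 was 7.44 to 7.80 in WAR N, 7.55 on Wistar N 1 and 6.79 to 6.87 on Wistar N 2 to 4. Their median difference was 0.69 in naïve and 0.53 in stimulated rats, where the complex I genes had a median of 0.13. The part of these cell types in the complex I differences was not tested.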

How the data were processed

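Total RNA of the inferior colliculus was labelled with biotin and hybridised to Affymetrix rat Gene ST arrays, which give no read depth, so that the number of arrays limits the precision. The deposited table holds log2 intensities for 29214 probe sets that the authors summarised and normalised by RMA per the submitters' notes, with software whose version was not given in the sources used here. Gene names came from the platform annotation. Probe sets with several symbols (323) or with none listed (13581) were left out, and the brightest probe set over all 15 arrays stood for each of 14506 genes. WAR was compared with Wistar within stimulated and within naïve arrays, with the interaction, in a linear model over all 4 groups (limma 3.58.1, R 4.3.3, lmFit and eBayes), and p-values were adjusted over all genes after Benjamini and Hochberg. The procedure was tested on simulated data. Values are given for called genes, the 6 largest rises and falls of each strain comparison and the core subunits, and for up to 4 genes of other lists by smallest p. Cox6a1, Esrrg and other genes outside this rule were chosen after their values were seen. Members and lists were chosen with earlier results of these data known. SAM, named in the study's methods, was not run. The 27 alternatives left out single arrays, used label sets, a replicate block, array weights, other normalisation, filters and probe set rules.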

Additional observations from a re-analysis of the deposited data

Results flagged for a closer look

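Within each group of 4 or 5 arrays, a gene was listed when its highest or lowest array stood apart from the rest of its group by Dixon's criterion. Chance lists about 1 in 20 groups when values are independent and not tied. Of 111 groups tested, 10 were listed, and 4 of these were the Wistar N 1 array.

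On Wistar N 1, Ndufa10 was at 6.88 and the other 3 Wistar N arrays were at 8.32 to 8.61. Ndufaf4 was at 8.84 there, with the others at 9.59 to 9.73, and Ndufb2 was at 8.85, with the others at 10.94 to 11.16. Ndufv3 was at 10.27, with the others at 9.29 to 9.41. Each of these 4 values lay on the side of its group that faces WAR N.

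The other 6 were single WAR arrays. Ndufa11 was at 9.80 on WAR N 3 (others 10.05 to 10.09) and Ndufb7 at 10.03 on WAR N 4 (others 10.37 to 10.44). In WAR S, Ndufa5 was at 10.06 on array 3 (others 9.92 to 9.95), Ndufaf1 at 7.69 on array 4 (others 8.28 to 8.42), Ndufs5 at 11.05 on array 4 (others 10.84 to 10.90) and Ndufb6 at 12.31 on array 5 (others 11.96 to 12.06). Tied values enter the groups of Ndufa5, identical on WAR S 2, 4 and 5, and of Ndufs5, identical on WAR S 3 and 5.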

How the results depend on the processing

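With 1 array left out at a time, the number of complex I genes called was 0 in stimulated rats (7 to 261 of all genes), 15 to 28 in naïve rats (28 without Wistar N 1, 1987 to 5968 of all genes) and 0 to 22 for the interaction (22 without Wistar N 1, 0 to 2956 of all genes). Of the 21 naïve calls, 15 were kept in all 15 such fits and 6 were lost in at least 1. Within the first label set the counts were 1 (stimulated, Ndufb10, 435 of all genes), 9 (naïve, 3401 of all genes) and 3 (interaction, 10.4% of all genes), and the naïve median was 0.18. With array weights they were 6 in stimulated rats (1433 of all genes) and 22 for the interaction (3353 of all genes), cyclic loess called 1 for the interaction (42 of all genes), and a fit of the 2 naïve groups alone called 5, Ndufa7, Ndufb4, Ndufc2, Ndufs5 and Ndufv1 (879 of all genes). With a mean over a gene's probe sets the naïve median was 0.18. Of all genes, 41.1% were called in naïve rats without Wistar N 1 and 20.9% with it. In the first label set, where Wistar N 1 is the lone Wistar N array, the naïve difference changed sign for 17 of the 37 genes, to 0.25 (Ndufa10), 0.24 (Ndufa5), 0.44 (Ndufaf1), 0.41 (Ndufaf4), -0.12 (Ndufb10), -0.040 (Ndufb11), 0.34 (Ndufb2), 0.67 (Ndufb3), -0.060 (Ndufb6), -0.021 (Ndufb9), -0.089 (Ndufv3), -0.40 (Ndufs7), 0.44 (Ndufs6-ps1), 0.23 (Ndufa1), 0.14 (Ndufb5), 0.054 (Ndufaf3) and 0.046 (Ndufa4). The cause was not tested. Ndufa7, Ndufs5 and Ndufv1 were called under all 27 alternatives in naïve rats.

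The correlations of same-numbered arrays were 0.030 and -0.051 in stimulated and 0.060, 0.021, -0.20 and -0.31 in naïve rats. Naïve arrays of different number reached from -0.35 to 0.39. With 2 Wistar S arrays, each WAR S array has correlations of equal size and opposite sign with them, so the stimulated values cannot decide pairing. The main fit used no pairing. With the replicate block, 0 genes were called in stimulated rats (median 0.11) and 19 in naïve rats (2490 of all genes, median 0.32), without Ndufaf1 (adjusted p = 0.0529) and Ndufb10 (adjusted p = 0.0684), and it changed no other call. The second label set holds no Wistar S array, so it gave no value for stimulated rats or the interaction. Limits are the 2 Wistar S arrays and the single Wistar N array of the first label set.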
